A study of Homo sapiens with 15 samples.

Results

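CCND1, ANO1, FADD, PPFIA1 and CTTN lie close together at 11q13, a stretch of chromosome 11 that is often amplified in squamous cancers of the head and neck. These 5 genes were taken by their symbols from the 12995 genes of the deposited tables, and all 5 passed the authors' filter on low values. The study compared a normal oral line with oral cancer lines and asked how the cancer lines respond to loss of YBX1, a protein that binds DNA and RNA. RNA was measured in 15 libraries, 3 from each of 5 groups. OKF6 is a normal oral epithelial line, labelled wild type. SCC15 and SCC25 are oral squamous cancer lines, and all SCC15 and SCC25 libraries here came from cells engineered with Cas9 and with a guide to YBX1 whose expression doxycycline switches on, both delivered by lentivirus and sorted for both fluorescent reporters, with no cloning step described. The +YBX1 groups, labelled wild type, received no doxycycline, and the –YBX1 groups received 1 µg/ml of doxycycline, with a time of 3 days on the labels. Since no group had doxycycline without the loss of YBX1, the drug and the knockdown cannot be told apart. The culture medium of SCC15, DMEM with serum, differed from the serum-free keratinocyte medium of OKF6 and SCC25, so in SCC15 effects of line and medium cannot be told apart either. DNA copy number was not analysed here, and nothing in the values below says whether a difference in RNA came with a difference in copies.

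The 5 genes have unrelated functions. CCND1 encodes cyclin D1, which activates CDK4 and CDK6 and so drives cells from G1 into S phase. ANO1 (also TMEM16A) encodes a calcium-activated chloride channel of the anoctamin family. FADD encodes the adaptor that links death receptors such as FAS to caspase-8. PPFIA1 encodes liprin-alpha-1, a scaffold found near focal adhesions at the cell edge. CTTN encodes cortactin, which binds the Arp2/3 complex and stabilises branched actin, for example in invadopodia. YBX1, the targeted factor, is named after the Y-box, a promoter element with a CCAAT core.

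On hg38 with GENCODE v44, the members are protein-coding genes on the plus strand within 795.4 kb. CCND1 occupies chr11:69641156-69654474, ANO1 chr11:69985907-70189530, FADD chr11:70203296-70207390, PPFIA1 chr11:70270690-70385312 and CTTN chr11:70398404-70436584. The largest gap, 331.4 kb, separates CCND1 from ANO1. The other neighbours lie between 13.1 and 63.3 kb apart. The last part of CCND1 overlaps LTO1, which lies on the opposite strand and was the only overlapping gene also listed in the tables. Whether reads were counted by strand is not given in the sources used here, so reads at the CCND1 end could have been assigned to either gene. RefSeq promoters (GRCh38.p14, 250 bases before to 50 after the start) were matched for ANO1, FADD and PPFIA1, while CCND1 and CTTN were not matched. They were searched on both strands for the TATA box (TATAAA), the GC box (GGGCGG) and the Y-box core (CCAAT). The Y-box core was present in 1 of the 3, PPFIA1, once, starting at position -136 from the start, and 34.61% of all 35116 promoters hold it. The GC box occurred 2 times in FADD, 4 times in ANO1 and 5 times in PPFIA1, and is held by 44.95% of all promoters. The TATA box letters were absent from the 3 windows and are held by 11.53% of all. GC content was 66.67% for FADD, 76.0% for ANO1 and 77.67% for PPFIA1, against a median of 58.67% for all promoters. The promoter of ANO1, the gene with the widest range among the lines, and that of PPFIA1, which holds the CCAAT (in capitals), are printed 5′ to 3′ on the plus strand, at chr11:69985657-69985956 and chr11:70270440-70270739.
ANO1: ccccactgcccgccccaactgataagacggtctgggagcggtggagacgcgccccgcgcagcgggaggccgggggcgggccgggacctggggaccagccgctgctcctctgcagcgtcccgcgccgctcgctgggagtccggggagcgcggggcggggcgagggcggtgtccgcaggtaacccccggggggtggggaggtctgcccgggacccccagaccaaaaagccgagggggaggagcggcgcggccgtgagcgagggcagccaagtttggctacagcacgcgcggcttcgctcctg
PPFIA1: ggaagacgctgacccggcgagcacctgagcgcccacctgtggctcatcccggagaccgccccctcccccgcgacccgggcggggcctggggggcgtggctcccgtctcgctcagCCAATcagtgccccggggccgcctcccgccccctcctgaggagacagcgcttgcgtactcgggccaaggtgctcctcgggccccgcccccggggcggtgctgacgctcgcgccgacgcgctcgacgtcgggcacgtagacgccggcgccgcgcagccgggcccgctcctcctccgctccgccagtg

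The libraries held between 4075290 and 6118501 counted reads (median 5689097), taken from the 3′ ends of mRNA. Values are log2 CPM, log2 of the reads with 0.5 added, scaled by library sizes that the authors had normalised, so that a read's worth does not follow from the counted reads alone. One read equalled between 0.1381 and 0.2255 CPM, and the floor used for genes at 0, which is 3 reads per library, equalled at most 0.6766 CPM. Where every library of a group held 3 reads or fewer but not all were at 0, the fold is the ratio of the pooled reads with an exact 95% interval that covers counting error only. All p-values on group differences are from limma across all 12995 genes, two-sided, with Benjamini-Hochberg adjustment and a threshold of 0.05. They measure the spread among 3 libraries of a group, which may be technical. For each gene this spread was pooled over all groups of a table, including groups outside the comparison. YBX1, the target, stood at 5.11, 5.56 and 6.00 log2 CPM in SCC15 +YBX1 and at 3.36, 3.71 and 3.13 in SCC15 –YBX1. In SCC25 it stood at 6.74, 6.31 and 6.62 in +YBX1 and at 5.26, 4.70 and 3.65 in –YBX1. The –YBX1 libraries of each line lay below all +YBX1 libraries, by 2.15 log2 units in SCC15 (SE 0.35) and 2.01 in SCC25 (SE 0.35), although neither difference passed the threshold after adjustment (limma adjusted p = 0.326 and 0.290). Of 9 epithelial markers, the summed level was 10710 to 17640 CPM in OKF6 and 6436 to 11270 CPM in SCC25 +YBX1, but 225.0 to 263.7 CPM in SCC15 +YBX1. All 9 were lower in SCC15 than in SCC25, and 8 of 9 were lower than in OKF6. The keratinocyte markers KRT5, KRT14 and TP63 had 15, 2 and 53 reads, 4, 4 and 20 reads and 0, 0 and 1 reads in the SCC15 +YBX1 libraries, so SCC15 nearly lacked these markers while SCC25 held them. Of 6 listed mesenchymal markers, 3 were higher and 1 lower in SCC15 than in OKF6, and the same counts held for SCC25 against OKF6. Summed levels were 803.2 to 1932 CPM in OKF6, 439.4 to 477.6 CPM in SCC15 +YBX1 and 2455 to 3232 CPM in SCC25 +YBX1. Gene by gene, 3 were higher and 3 lower in SCC25 than in SCC15, with a median of -0.34. Over all genes, 26.9% were called higher and 23.4% lower in SCC15 than in OKF6, and 18.9% and 11.3% in SCC25. For SCC25 against SCC15 these shares were 23.6% and 20%. The leukocyte markers CD14 and CD68 together reached at most 44.36 CPM in these 3 groups, and PTPRC, CD3E, PECAM1, CDH5 and VWF were not listed. The part of these differences in cell state in the results on SCC15 was not tested.

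SCC25 held more RNA of each of the 5 genes than OKF6, between 3.95-fold and 8.99-fold. FADD stood at 6.55, 5.89 and 5.81 log2 CPM in the OKF6 libraries and at 9.18, 9.18 and 9.40 in SCC25 +YBX1. The SCC25 libraries clustered tightly, far above all OKF6 libraries. The difference was 3.17 log2 units (SE 0.22, 8.99-fold, 95% interval 2.69 to 3.65), with a limma adjusted p of 6.853e-06. CCND1 stood at 6.65, 6.42 and 7.07 in OKF6 and at 9.58, 9.49 and 10.05 in SCC25 +YBX1, again without overlap. It was 2.99 log2 units higher (SE 0.38, 7.95-fold, 95% interval 2.15 to 3.83, limma adjusted p = 0.000269). ANO1 rose from 5.04, 5.16 and 4.53 to 7.68, 6.73 and 7.74, with SCC25 replicate 2 below the other two but still above OKF6. Its difference, 2.47 log2 units (SE 0.48, 5.56-fold, limma adjusted p = 0.00340), had the widest interval of the 5, from 1.41 to 3.54. That interval rests on a spread pooled with SCC15 +YBX1, where ANO1 had 0, 0 and 1 reads.

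CTTN and PPFIA1 were higher as well. CTTN stood at 9.32, 8.45 and 8.77 log2 CPM in OKF6 and at 11.23, 11.08 and 11.15 in SCC25 +YBX1, a difference of 2.31 (SE 0.25, 4.95-fold, limma adjusted p = 7.873e-05). The SCC25 libraries differed little from each other (SD 0.07), and the spread came from OKF6 (SD 0.44). PPFIA1 stood at 6.18, 6.34 and 5.16 in OKF6, where replicate 3 was low, and at 7.96, 7.88 and 7.80 in SCC25 +YBX1. It differed by 1.98 log2 units (SE 0.28, 3.95-fold, limma adjusted p = 0.000518), the smallest change of the 5. In all, 5 of 5 members were higher and 0 lower, where 18.9% of all genes were called higher and 11.3% lower. For the lack of overlap with OKF6, the share of all genes is not given here. The median difference of the 5 was 2.47, against 0.13 over all genes. In bulk RNA, a larger share of expressing cells and more RNA per cell cannot be told apart.

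**Figure D1:**
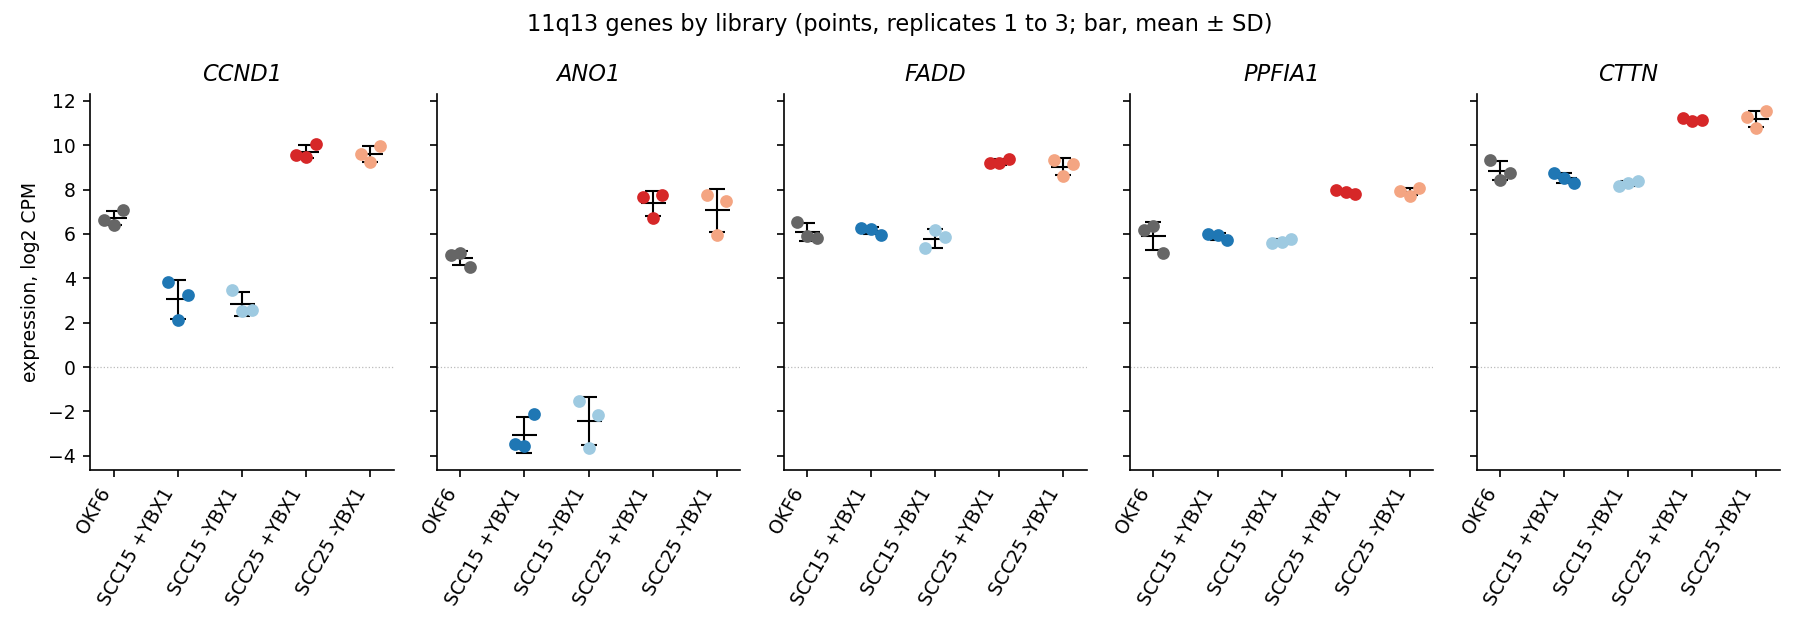
Expression of the 5 genes (y axis, log2 CPM) in each library of the 5 groups (x axis). Points are replicates 1 to 3 and bars are the mean and SD (n = 3). SCC25 lies highest for every gene. In both SCC15 groups CCND1 and ANO1 lie below OKF6, while FADD, PPFIA1 and CTTN overlap OKF6 in SCC15 +YBX1, and CTTN in SCC15 –YBX1, at 8.17 to 8.38, lies just below the lowest OKF6 library at 8.45.

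In SCC15 the 5 genes did not move together. CCND1 had 3.84, 2.10 and 3.24 log2 CPM in the SCC15 +YBX1 libraries, 78, 25 and 61 reads, below all OKF6 libraries, which held 379 to 798 reads. It was 3.65 log2 units lower than in OKF6 (SE 0.38, 12.6-fold, 95% interval 7.02-fold to 22.6-fold, limma adjusted p = 1.6e-05). ANO1 was all but absent, with 0, 0 and 1 reads in SCC15 +YBX1 against 171, 158 and 137 in OKF6. From the pooled reads, 1 against 466, ANO1 was 535.7-fold lower (counting interval 95.7 to 21200, limma adjusted p = 4.181e-07). It had 2, 0 and 1 reads in the SCC15 –YBX1 libraries as well.

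FADD, PPFIA1 and CTTN, by contrast, overlapped between SCC15 and OKF6. FADD stood at 6.27, 6.23 and 5.96 in SCC15 +YBX1, inside the OKF6 range, a difference of 0.07 log2 units (95% interval -0.41 to 0.55, limma adjusted p = 0.813). PPFIA1 stood at 6.00, 5.97 and 5.72, a difference of 0.00 (95% interval -0.61 to 0.62, limma adjusted p = 0.996). CTTN stood at 8.77, 8.53 and 8.29, a difference of -0.31 (95% interval -0.86 to 0.23, limma adjusted p = 0.311). The lowest bound of these intervals was -0.86 and the highest 0.62. Thus 0 of 5 members were higher and 2 lower, both without overlap, where 26.9% of all genes were called higher, 23.4% lower, and 25.5% were lower without overlap. With ANO1 as fitted or at the lower limit of its ratio, the median of the 5 was -0.31, against 0.10 over all genes.

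Between the cancer lines, every member was higher in SCC25, as it was in 23.6% of all genes (20% were lower). Each had all SCC25 libraries above all SCC15 libraries, as did 34.1% of all genes. CCND1 differed by 6.64 log2 units (SE 0.38, 100-fold, 95% interval 5.80 to 7.49, limma adjusted p = 4.013e-07). It had 25 to 78 reads in the SCC15 +YBX1 libraries, with an SD of 0.88 log2 units. ANO1 had 1091, 540 and 1028 reads in SCC25 +YBX1 and was 3133-fold higher there than in SCC15 by pooled reads (counting interval 561.8 to 123800, limma adjusted p = 1.104e-07). FADD differed by 3.10 (8.57-fold), CTTN by 2.62 (6.16-fold) and PPFIA1 by 1.98 (3.94-fold), with limma adjusted p of 1.306e-06, 9.572e-06 and 0.000194. For these last 3, the differences of SCC25 from OKF6 and from SCC15 were close to each other. The comparisons share the SCC25 +YBX1 libraries and are not independent. Both groups of a line had nearly the same levels, so the order of levels for every gene was SCC25 first, with its –YBX1 and +YBX1 groups overlapping. OKF6 came next and SCC15 last for CCND1 and ANO1, and OKF6 and SCC15 +YBX1 overlapped for FADD, PPFIA1 and CTTN.

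**Figure D2:**
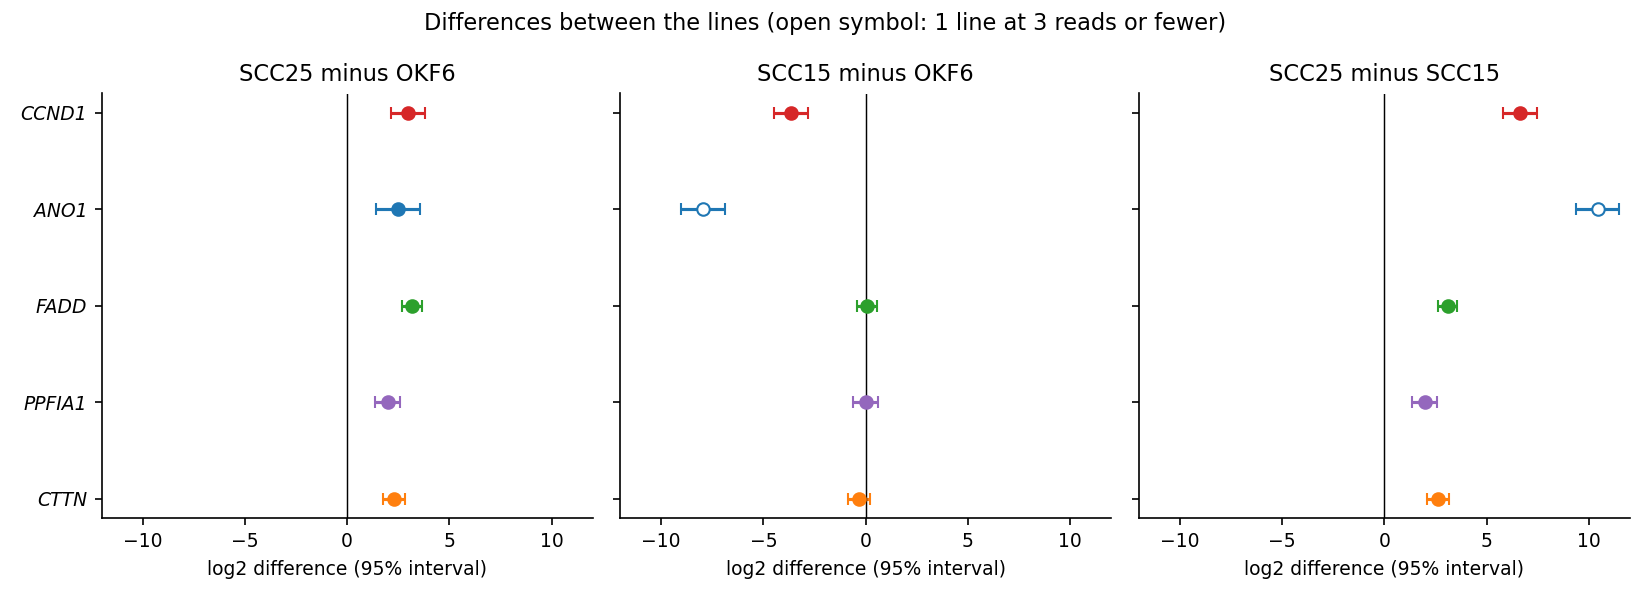
Differences between the lines for the 5 genes (x axis, log2 difference with its 95% interval from limma, one panel per comparison). Open symbols mark ANO1 where SCC15 was at 3 reads or fewer, so that the fitted size depends on the 0.5 reads added. All 5 genes lie right of 0 for SCC25 against OKF6, between 1.98 and 3.17, while for SCC15 against OKF6 the intervals of CCND1 and ANO1 lie wholly left of 0 and those of FADD, PPFIA1 and CTTN include 0.

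Within the span of the members and 1 Mb on either side, 9 further genes were listed. Genes of the region that were not listed could not be counted. Against OKF6, 7 of the 9 were higher in SCC25 and 0 lower, where 18.9% of all genes were called higher and 11.3% lower. Their median difference was 2.19 log2 units, against 0.13 over all genes. TPCN2, a two-pore channel of lysosomes, stood at 3.95, 4.46 and 3.83 in OKF6 and at 6.85, 6.52 and 6.89 in SCC25 +YBX1, a difference of 2.67 (SE 0.23, limma adjusted p = 2.459e-05). LTO1, inside the span, stood at 5.69, 4.79 and 4.92 in OKF6 and at 7.60, 7.68 and 7.97 in SCC25 +YBX1, 2.62 higher (SE 0.25, limma adjusted p = 3.799e-05). CPT1A, which carries long-chain fatty acids into mitochondria for oxidation, differed by 2.19, the mitochondrial ribosomal protein gene MRPL21 by 1.84, DHCR7, the last enzyme of cholesterol synthesis, by 1.43 and the helicase gene IGHMBP2 by 1.2. Each of these had all SCC25 libraries above all OKF6 libraries, and the share of all genes that did so is not given here. GAL, the gene of the neuropeptide galanin, had 0, 0 and 3 reads in OKF6 and was 365.2-fold higher in SCC25 (counting interval 124.6 to 1774). TESMIN did not pass the threshold (0.08, 95% interval -0.68 to 0.85). SHANK2, a synaptic scaffold gene, had 5, 40 and 0 reads in OKF6 against 84, 51 and 49 in SCC25 +YBX1, and its difference of 3.67 (SE 1.45) missed the threshold (limma adjusted p = 0.0802).

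In SCC15 5 of the 9 neighbours did not pass the threshold against OKF6, namely TPCN2 (0.26), LTO1 (0.12), CPT1A (0.81), TESMIN (0.04) and SHANK2 (-1.26). MRPL21 (1.19), IGHMBP2 (1.06) and GAL (1048-fold, counting interval 358.4 to 5085) were higher, and DHCR7 was lower by 0.86 with overlapping libraries. Over all genes, 26.9% were called higher and 23.4% lower. LTO1 adjoins CCND1, and whether its change in SCC15 differed from that of CCND1 was not tested. Between the cancer lines, 6 of the 9 were higher in SCC25 and 0 lower, where 23.6% of all genes were called higher and 20% lower. The 6 were TPCN2 (2.41), LTO1 (2.50), DHCR7 (2.29), CPT1A (1.38), MRPL21 (0.65) and SHANK2 (4.93, SE 1.45). GAL went the other way, by -1.49 (SE 0.58), but missed the threshold (limma adjusted p = 0.0601). IGHMBP2 (0.14) and TESMIN (0.04) did not pass it either.

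**Figure D3:**
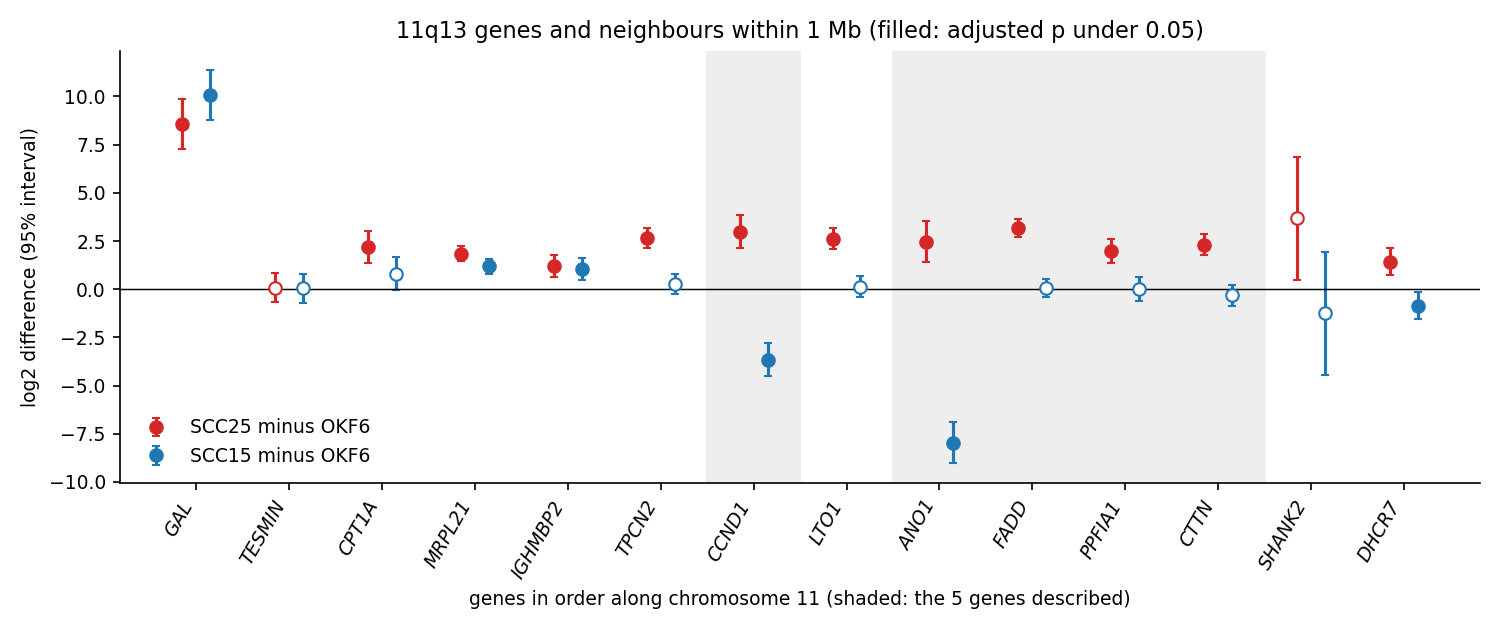
The 5 genes (shaded) and their 9 listed neighbours within 1 Mb, in order along chromosome 11 (x axis), with the log2 difference of SCC25 (red) and SCC15 (blue) from OKF6 and its 95% interval (y axis). Filled symbols have a limma adjusted p under 0.05. For SCC25, all 5 genes and 7 of the 9 neighbours pass the threshold above 0, as do 18.9% of all genes. For SCC15, CCND1 and ANO1 lie farthest below 0.

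Farther along the chromosome, genes were grouped by the distance of their start from that of CCND1, in windows chosen after the values were seen. Over all genes, 18.9% were higher and 11.3% lower in SCC25 than in OKF6, with a median of 0.13. The first window held 32 genes starting 1 to 5 Mb distal of CCND1, on the side of the telomere and outside the neighbours above. Of these, 22 (68.75%) were higher in SCC25 than in OKF6 and 1 was lower, with a median of 2.19. In the next window, from 5 to 10 Mb, 4 of 26 (15.38%) were higher and 9 lower, with a median of -0.66. On the proximal side, 43 of 109 genes (39.45%) at 1 to 5 Mb were higher, with a median of 0.71, and 30 of 85 (35.29%) at 5 to 10 Mb, with a median of 0.65. For SCC15 against OKF6 the medians of these windows were, in the same order, 0.44, -0.01, 0.08 and 0.27, against 0.1 over all genes. Among the 744 genes placed on chromosome 11, the members ranked from 50 (FADD) to 109 (PPFIA1) in SCC25 against OKF6, so larger increases occurred elsewhere on the chromosome.

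**Figure D4:**
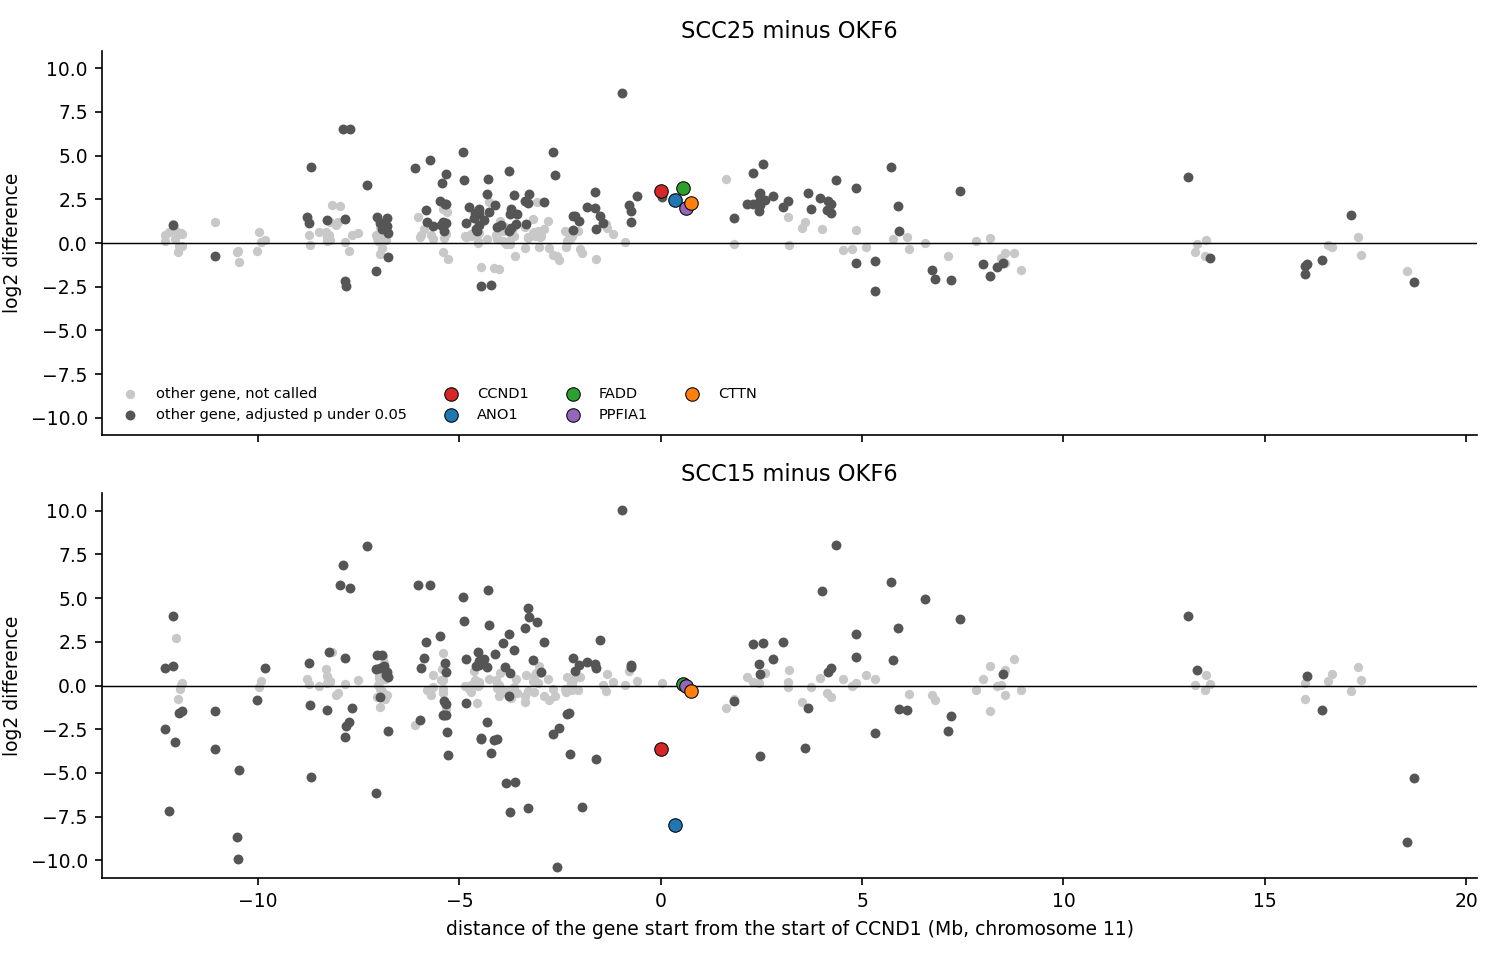
Log2 difference (y axis) of genes starting within 20 Mb of CCND1 against the distance from its start in Mb (x axis), for SCC25 (upper panel) and SCC15 (lower panel) against OKF6. Coloured points are the 5 genes, dark points other genes with a limma adjusted p under 0.05 and light points those without. In SCC25 most genes 1 to 5 Mb to the right lie above 0 and the median falls to -0.66 beyond 5 Mb.

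Genes whose 5 group means, each centred on the gene's own mean, lay nearest to a member were taken from the 6465 named genes above the median expression. For FADD they included SPSB1 and SDCCAG8, at root mean square differences of 0.0867 and 0.214 log2 units, and CTTN was the fifth nearest at 0.293. For PPFIA1 they were ECE1 (0.0859), NAGK (0.0909) and ORAI1 (0.0987). For CTTN they were IRF1 (0.0718), C1QTNF1 (0.166) and RAB6A (0.166), the last also on chromosome 11. CCND1 was nearest to CDA (0.263), PMEPA1 (0.552) and SERPINE2 (0.556), and ANO1 to TINAGL1 (0.460), TMSB4X (0.572) and IFI27 (0.589). Within the members, FADD, PPFIA1 and CTTN were 0.291 to 0.526 apart, and CCND1 was 1.75 to 2.12 from these 3. The distances of ANO1, and so the genes nearest to it, depend on the 0.5 reads added, since every SCC15 library held 2 ANO1 reads or fewer, and its distances to the other members are not given.

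The other genes of each member's pathway were counted in the same comparisons. For SCC25 against OKF6, 18.9% of all genes were higher and 11.3% lower. For SCC15 against OKF6, 26.9% were higher and 23.4% lower, and for SCC25 against SCC15, 23.6% were higher and 20% lower. These shares apply to each list below. Of 21 G1 cyclin and CDK genes other than CCND1, 2 were higher and 5 lower in SCC25 than in OKF6, with a median of 0.06. CDK4, a partner kinase of cyclin D1, was higher by 1.96 (SE 0.34), and CCND2, another D-type cyclin, was lower by 3.6 (SE 0.32). CDK4 was not high in SCC25 alone, with mean log2 CPM of 7.17 in OKF6, 9.13 in SCC25 +YBX1 and 8.89 in SCC15 +YBX1. CDK6, the other partner kinase, went the other way, with a mean of 7.63 in OKF6 and 5.80 in SCC25 +YBX1. CDKN2A, which encodes the CDK4 and CDK6 inhibitor p16, had 1258, 685 and 779 reads in OKF6 and 1675, 1646 and 1714 in SCC15 +YBX1, but 0, 4 and 3 in SCC25 +YBX1 (limma adjusted p = 1.285e-05 against OKF6). SCC25, where CCND1 was highest, was nearly without CDKN2A RNA, while OKF6 and SCC15 both held it. Whether the levels of CCND1 and CDKN2A are related was not tested. E2F2, an activator of S-phase genes, was higher than in OKF6 in SCC25 (2.01, SE 0.53) and SCC15 (3.44, SE 0.53). In SCC15, 6 of the 21 were higher and 5 lower than in OKF6, near the shares over all genes, with the lowest CDKN2B (-3.65) and CCND2 (-3.51). Against SCC15, 4 were higher and 6 lower in SCC25, among them CDKN2C (-3.14) and CDKN2B (2.80).

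Around FADD, 16 of 18 death receptor genes were listed. In SCC25, 3 were higher and 1 lower than in OKF6, where 18.9% of all genes were called higher and 11.3% lower. The furthest moved were the adaptor TRAF2 (1.37), the apoptosis inhibitor BIRC2 (1.25) and CASP8, the protease that FADD recruits (-1.25). In SCC15, 11 were lower and 1 higher, where 23.4% of all genes were called lower and 26.9% higher. Their median was -1.23, against 0.10 over all genes. The death ligand TNFSF10 (TRAIL) was 67.5-fold lower there (counting interval 26.03 to 249.9), BIRC3 81.6-fold lower (27.6 to 398.9), and CASP10 lower by 3.33 log2 units (SE 0.62). Against SCC15, 10 were higher in SCC25 and 0 lower, where 23.6% of all genes were called higher and 20% lower. The part of the missing keratinocyte markers of SCC15 in these counts was not tested.

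Of 21 genes of branched actin and invadopodia, the setting of CTTN, 15 were lower and 1 higher in SCC15 than in OKF6, with a median of -1.09. Over all genes, 23.4% were called lower there and 26.9% higher. HCLS1, the paralogue of CTTN, had 3, 1 and 2 reads in SCC15 +YBX1 against 347, 345 and 405 in OKF6, 210.2-fold lower (counting interval 96.3 to 574), and MMP14, a matrix protease of invadopodia, was 443.2-fold lower (122.3 to 3666). The Arp2/3 subunit ARPC1B was lower by 3.56 (SE 0.28). In SCC25, 3 were higher and 5 lower than in OKF6, where 18.9% of all genes were called higher and 11.3% lower. DNM2, a dynamin that binds cortactin, was higher by 1.86 (SE 0.25), and ARPC1B and ARPC5 were lower by 1.60 and 1.23. Against SCC15, 13 were higher and 1 lower in SCC25, where 23.6% of all genes were called higher and 20% lower. The largest increases were those of HCLS1 (311.2-fold, counting interval 142.7 to 849.4), MMP14 (204.4-fold, 56.2 to 1695) and the bundling protein FSCN1 (3.65, SE 0.54).

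Among 7 listed anoctamins beside ANO1, 0 were higher and 3 lower in SCC25 than in OKF6 (ANO4 -3.00, ANO10 -0.90 and ANO6 -0.86). Over all genes, 18.9% were called higher and 11.3% lower. In either direction, 5 of the 7 had an unadjusted p under 0.05 in limma, where 41.9% of all genes did. In SCC15, 2 were higher and 3 lower, where 26.9% of all genes were called higher and 23.4% lower. ANO9 was at least 20.3-fold lower, ANO4 142.5-fold lower (counting interval 25.12 to 5675) and ANO5 at least 17.2-fold higher. Against SCC15, 3 were higher and 1 lower in SCC25, ANO5 being the lower one, where 23.6% of all genes were called higher and 20% lower. Of 14 listed liprins and cortical partners of PPFIA1, 2 were higher and 4 lower in SCC25 than in OKF6, and 1 higher and 7 lower in SCC15. PTPRS, a receptor phosphatase bound by liprins, was 241.9-fold higher in SCC25 (counting interval 43.0 to 9594) and 876.8-fold higher in SCC15 (157 to 34670), while its relative PTPRD was 141.5-fold lower in SCC25 (25.0 to 5626). PHLDB2, a partner at the cell cortex, was lower by 4.58 in SCC15 (SE 0.24), KANK1 was lower by 2.34 there, and KIF21A was lower by 2.19 in SCC25. Between the cancer lines 5 were higher and 4 lower in SCC25, with PHLDB2 higher by 3.76 and the liprin PPFIA3 lower by 2.02. No median given for these lists changed when genes near 0 reads were set to their bound or lower limit.

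Loss of YBX1 moved no member past the threshold in either line. In SCC15, 0 of 5 members were called and 0 had an unadjusted p under 0.05 in limma, where 0% of all genes were called and 302 of 12995 (2.32%) had an unadjusted p under 0.05. In SCC25, the members again gave 0 and 0, where 0% of all genes were called and 401 (3.09%) had an unadjusted p under 0.05. CCND1 had 79, 35 and 39 reads in SCC15 –YBX1 and stood at 9.61, 9.23 and 9.96 log2 CPM in SCC25 –YBX1, overlapping the +YBX1 libraries in both lines. Its differences were -0.22 (95% interval -1.02 to 0.59) and -0.10 (95% interval -0.91 to 0.70). PPFIA1, whose promoter held a CCAAT (those of CCND1 and CTTN were not searched), stood at 5.57, 5.62 and 5.79 in SCC15 –YBX1. In SCC25 –YBX1 it stood at 7.93, 7.73 and 8.05. Its differences were -0.24 (95% interval -0.55 to 0.07) and 0.03 (95% interval -0.28 to 0.34), the narrowest intervals of the 5.

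FADD stood at 5.35, 6.17 and 5.86 in SCC15 –YBX1 and at 9.33, 8.59 and 9.17 in SCC25 –YBX1, differences of -0.36 (95% interval -0.84 to 0.12) and -0.22 (95% interval -0.70 to 0.26). CTTN stood at 8.17, 8.28 and 8.38 in SCC15 –YBX1 and at 11.25, 10.77 and 11.53 in SCC25 –YBX1, differences of -0.25 (95% interval -0.68 to 0.17) and 0.03 (95% interval -0.40 to 0.45). Both genes overlapped between the arms of each line. ANO1 stood at 7.74, 5.97 and 7.48 in SCC25 –YBX1, a difference of -0.32 with a wide interval (-1.65 to 1.00). No fold is given for SCC15, where both arms were at 2 reads or fewer. The spread behind the SCC25 interval was pooled with these SCC15 libraries, so its width is not that of SCC25 alone. Changes of the size by which SCC25 differed from OKF6 or SCC15 lie outside the intervals of CCND1, FADD, CTTN and PPFIA1. For ANO1 in SCC25 the interval, the widest of the 5, also leaves out its difference of 2.47 between SCC25 and OKF6. The difference between the knockdown effects of the lines passed for 0 of 5 members, with 0 at an unadjusted p under 0.05, where 0% of all genes were called and 294 (2.26%) had an unadjusted p under 0.05. Of the listed genes of the 5 pathways, 0 were called in either line by limma, and at an unadjusted p under 0.05 there were 2 in SCC15 and 0 in SCC25.

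Single libraries moved the knockdown values in both lines. Replicate 2 of SCC25 –YBX1 was the lowest of the 6 SCC25 libraries for 5 of 5 members, with 324 ANO1 reads against 1074 and 926 in the other –YBX1 replicates. Without it, the difference of CCND1 in SCC25 turned from -0.10 to 0.083 and that of ANO1 from -0.32 to 0.222. For ANO1, replicate 2 of SCC25 +YBX1 was also low, and without that library the difference was -0.648. In SCC15, replicate 1 of +YBX1 was the highest of the 6 libraries for 4 of 5 members and replicate 1 of –YBX1 the lowest for 3 of 5. Without the latter, the difference of FADD in SCC15 went from -0.36 to -0.138, and without the former that of CCND1 turned from -0.22 to 0.171. None of these values passed the threshold with or without these libraries. Among cell type markers, replicate 2 of SCC25 –YBX1 had 40056 KRT5 reads against 15055 and 9653 in the other –YBX1 replicates, and 25755 KRT14 reads against 5454 and 4711. It held fewer reads of KRT18, 1866 against 2836 and 4950, and of VIM, 1918 against 4612 and 5626. These markers were chosen after their values were seen, and the other listed markers are not given for this library. The part of these marker levels in the values of this library was not tested.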

How the data were processed

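RNA extracted with TRIzol was made into QuantSeq 3′ mRNA-seq FWD libraries, which read the 3′ ends of transcripts, and sequenced as single-end reads. Per the methods and the submitters' processing notes, Cutadapt (trimming), HISAT2 (alignment to hg38), featureCounts (counts per gene) and limma (normalisation and filtering of low genes) were the tools the authors used. The authors deposited log2 CPM values for 12995 genes in a table of the lines and a table of the knockdown, with 0.5 reads added, and 6 libraries stand in both (differing by at most 5e-08). Reads were recovered from the lowest value of each library, and 100% of values were whole within 0.05 of a read. Counted reads lay between 4075290 and 6118501, and reads and floors cover counting error only.

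Groups and replicate numbers came from the sample labels. Differences were computed with limma 3.58.1 in R 4.3.3 on the deposited log2 values (lmFit, eBayes with a variance trend, all groups of a table in the fit, Benjamini-Hochberg over 12995 genes, threshold 0.05), and tested on simulated data. The members and gene lists were chosen with earlier results of these data known. Named genes were the 5 members, YBX1, every listed gene within 1 Mb, per pathway list and comparison up to 3 called genes with the largest change, and the 3 genes nearest to each member, of which 1 is not reported here. CDK4, CDK6 and the KRT5, KRT14, KRT18 and VIM reads of 1 library fall outside this rule and were chosen after their values were seen. Positions are from GENCODE v44, to which 12540 genes were matched by Ensembl ID, and promoters from RefSeq. Python 3.11.15 and matplotlib 3.10.9 made the figures.

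Same-numbered libraries of +YBX1 and –YBX1 deviated together (correlations of deviations from the group means, over 6497 genes, 0.117 to 0.498 in SCC15 and 0.135 to 0.47 in SCC25), so their numbers were taken as pairs in an alternative. The alternatives were the replicate block, the compared groups alone, equal library medians, quantile normalization, genes above the first quartile of expression, log2(CPM + 1), no variance trend, robust eBayes, each library left out, and voom weights on recovered reads, the last chosen after seeing the data.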

Additional observations from a re-analysis of the deposited data

Results flagged for a closer look

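CCND1 and ANO1 were each lower in SCC15 and higher in SCC25 than in OKF6, so that the effect of a cancer line against the normal line differed in direction between the lines. Over all genes, 23.4% were called lower in SCC15 and 18.9% higher in SCC25. The share of genes with both is not given here, so how unusual the pattern is cannot be said. The difference itself was tested as SCC25 against SCC15, which share the OKF6 reference. For CCND1 it was 6.64 log2 units (SE 0.38, limma adjusted p = 4.013e-07), with every SCC25 library above and every SCC15 library below the OKF6 libraries. For ANO1 the fitted value was 10.43 log2 units (SE 0.48, limma adjusted p = 1.104e-07), a size that depends on the 0.5 reads added to 0, 0 and 1 reads in SCC15, where the ratio of pooled reads was 3133-fold (95% counting interval 561.8 to 123800).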

How the results depend on the processing

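The number of members called was 2 in SCC15 against OKF6, 5 in SCC25 against OKF6, 5 between the cancer lines and 0 in each knockdown comparison, under every alternative run, including the replicate block that pairs same-numbered libraries (2, 5, 5 and 0), which changed no call. Among called members, the least certain was ANO1 in SCC25 against OKF6, from 2.29 to 2.80 log2 units with an adjusted p of at most 0.0240 with any library left out. Over the other 9 alternatives its adjusted p was at most 0.00622. Values that changed sign had not passed the threshold. With quantile normalization CTTN turned to -0.0149 in SCC25 on knockdown. With 1 library left out, the differences from OKF6 in SCC15 ran from -0.0699 to 0.303 for FADD and from -0.365 to 0.225 for PPFIA1. The knockdown difference ran from -0.696 to 0.171 for CCND1 in SCC15, and in SCC25 from -0.284 to 0.083 for CCND1, -0.144 to 0.235 for CTTN, -0.0449 to 0.113 for PPFIA1 and -0.659 to 0.222 for ANO1. The difference between the knockdown effects ran from -0.274 to 0.593 for CCND1 and from -0.0842 to 0.361 for FADD. The cause of these turns was not tested. Equal library medians moved the median of all genes by 0.164 in SCC15 against OKF6 and by -0.153 between the cancer lines, and quantile normalization by -0.184 in SCC25 against OKF6 and by -0.184 between the cancer lines. With these scalings the genes higher and lower in SCC25 than in SCC15 turned from 3070 and 2602 to 2685 and 3045 (medians) or to 2767 and 3430 (quantiles), and those in SCC25 against OKF6 from 2450 and 1473 to 2006 and 1837 (quantiles). Depth limits ANO1 in SCC15, at 2 reads or fewer. CCND1 had 25 to 78 reads in the SCC15 +YBX1 libraries, with an SD of 0.88 log2 units. The part of depth in that spread was not tested.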
